A study of Mus musculus with 23 samples.

Results

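The genes described here are the DNA repair and DNA polymerase genes of a mouse amplicon panel. They were chosen by a rule on gene symbols, with earlier results of these data known. The rule took symbols that begin with Xrcc, Ercc, Fanc, Brca, Mlh, Chek or Neil. It also took those that begin with Rad, Msh, Pms, Parp, Rpa or Rfc and a digit, or with Pol and 1 of the letters a, b, d, e, h, i, k and q. Atm, Atr, Blm, Wrn, Ogg1 and Ung completed it. The rule gave 37 of the 3826 genes on the panel. Of these, 36 had enough reads to be tested. The remaining member, Rfc5, a subunit of the clamp loader that opens the sliding clamp PCNA, had 0 to 2 counts in abemaciclib tumours and 0 to 3 in control tumours, so nothing can be said of its level.

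The samples were 12 mammary carcinomas from mice given abemaciclib, an inhibitor of the kinases CDK4 and CDK6, at 90 mg/kg each day by gavage, and 11 from mice given control vehicle. All animals, controls included, were induced with doxycycline at 6 weeks of age, and were divided at random, with mean tumour volumes matched, when tumours had formed. Tissue was snap frozen after dose 12, at a number of hours that cannot be read in the labels. What doxycycline switches on in these mice, the strain and whether any tumours share an animal were not given in the sources used here, so p-values measure the spread between these tumours. RNA was read as 1 short amplicon per gene, about 110 bases long. Libraries held 2756919 to 4990391 counts in abemaciclib tumours and 3044380 to 4492736 in control tumours.

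Levels are given as CPM, the count divided by the library total after scaling for composition and put on a common scale. Since amplicons differ in efficiency, levels are compared between tumours and never between genes. The epithelial markers Krt8, Epcam and Cdh1 were abundant in both groups (Epcam at 838 to 1406 CPM in abemaciclib tumours and 791 to 1758 CPM in control tumours). Of 15 luminal markers listed, 9 were tested, 7 of them with negative log2 ratios, and 0 had an unadjusted p under 0.05. Abemaciclib tumours 3 and 10 had been described as standing apart in earlier work on these data, and abemaciclib tumour 9 was the smallest library. Where leaving out 1 of them ended or made a call of a member described here, this is said beside the value.

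As background, DNA repair is divided among pathways that each handle a kind of lesion. Homologous recombination copies the sister chromatid to mend double-strand breaks, mismatch repair corrects copying errors, nucleotide excision repair cuts out bulky lesions, base excision repair replaces single damaged bases, and end joining rejoins broken ends. Recombination and replication factors are made mainly in cells that are passing through S phase and G2, and many of their genes are targets of the E2F factors that RB holds in check. CDK4 and CDK6 release that check by phosphorylating RB. Excision repair and end joining factors are used throughout the cell cycle.

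The comparison of abemaciclib with vehicle asked how far repair and polymerase transcripts differ in tumours under CDK4 and CDK6 inhibition. Most members lay lower with abemaciclib, with Rad51c, Chek1, Brca1 and Rpa3 among the lowest. Of 36 tested members 30 had a log2 ratio (the fitted log2 fold change, abemaciclib over control) below 0, against 48.9% of all 2925 tested genes, and the median was -0.17 over members and 0.0055 over all genes. By edgeR's quasi-likelihood test with Benjamini-Hochberg adjustment over all genes, 0 members passed, as 0 of all genes did (0% called). At an unadjusted p under 0.05, 10 members were lower, where 5.81% of all genes were, and 0 were higher, where 7.59% were. Among the 10 were Rad51c, Rpa3, Pold2, Parp1, Chek1, Brca1, Msh6, Rpa2 and Rad21.

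Other tests on the same counts passed some of them. The Wald test of DESeq2 called 1 member lower, Rad51c, where it called 0.444% of all genes lower, and 0 higher, with 1.61% of all genes. Limma-voom with quality weights called 4 members lower, Rad51c, Rpa3 and Pold2 among them, against 2.39% of all genes, and 0 higher, against 1.95%. Rad51c was the member called by both. By edgeR it passed when abemaciclib tumour 2, 3 or 10 or control tumour 6 was left out (adjusted p down to 0.0279). Pold2 passed without abemaciclib tumour 10 (adjusted p = 0.0486). Leaving out any other single tumour made no call of the gene, with adjusted p up to 0.0946 for Rad51c and 0.241 for Pold2. With libraries scaled by their totals alone, Rad51c did not pass (adjusted p = 0.0795 by edgeR). Without abemaciclib tumours 3 and 10 together edgeR called 3 members lower, Rad51c and Pold2 among them. The number lower at an unadjusted p under 0.05 was 6 without abemaciclib tumour 5, without control tumour 7 or without control tumour 8, and also without abemaciclib tumour 9 and control tumour 8 together.

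**Figure D1:**
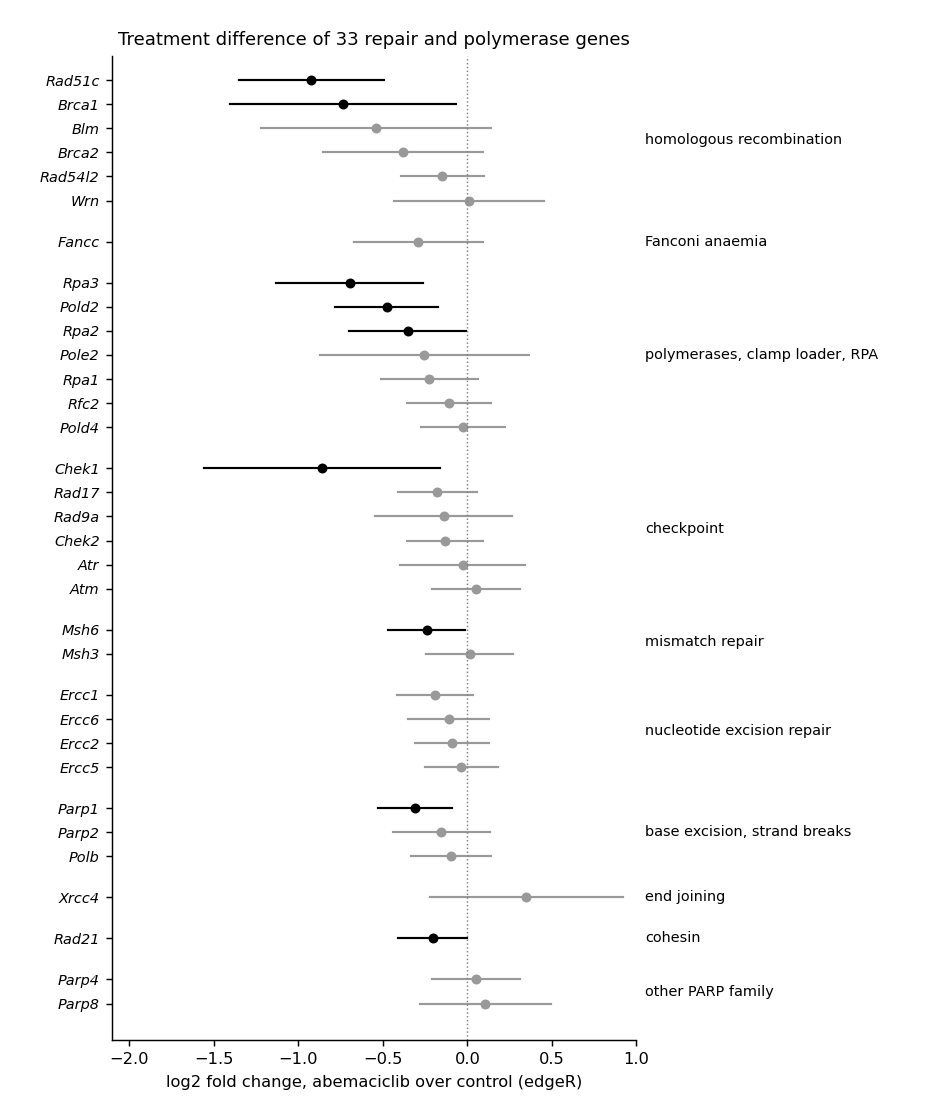
Log2 fold change of abemaciclib over control for 33 of the 36 tested members, by role, with 95% intervals derived from the edgeR test. There were 12 abemaciclib and 11 control tumours. Black marks the 9 drawn members with an unadjusted p under 0.05, all of which lie left of 0; Rad51c at -0.92 and Chek1 at -0.86 are the lowest drawn.

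In tumours, fewer cells of a kind and less RNA per cell cannot be told apart. Markers of dividing cells were also lower. All 15 tested genes of a G2/M list of 18 were lower at an unadjusted p under 0.05, where 5.81% of all genes were. Of the 15, 0 passed edgeR's adjusted threshold. Their median log2 ratio was -1.04, with a summed level of 158 to 1607 CPM in abemaciclib tumours and 519 to 2488 CPM in control tumours. Mki67, the proliferation antigen, was at 9.05, 31.3 and 109 CPM (lowest, median, highest) in abemaciclib tumours and at 35.8, 96.3 and 152 CPM in control tumours. Its log2 ratio was -1.04 (SE 0.339, adjusted p = 0.150 by edgeR). Among markers of other cells, all 5 tested macrophage markers of 8 listed were positive. At an unadjusted p under 0.05, 4 of them were higher, where 7.59% of all genes were, and 0 passed the adjusted threshold. Their summed levels were 1849 to 4478 CPM in abemaciclib tumours and 1362 to 2929 CPM in control tumours. The part of dividing cells or of macrophages in the values of the members was not tested.

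The recombination group held 7 tested members, 6 with negative log2 ratios, where 48.9% of all genes had one. At an unadjusted p under 0.05, 3 were lower, against 5.81% of all genes. Rad51c encodes a factor that promotes strand exchange in double-strand break repair (chromosome 11, 87376645 to 87404954, minus strand, mm10). It was at 3.12, 4.61 and 7.80 CPM (lowest, median, highest) in abemaciclib tumours and at 5.63, 8.66 and 17.02 CPM in control tumours, from 9 to 66 counts per tumour. All 12 abemaciclib tumours were under the control median and 8 lay below every control tumour. The log2 ratio was -0.92 (SE 0.208, 95% interval -1.35 to -0.50, adjusted p = 0.0578 by edgeR, 0.00862 by DESeq2 and 0.0238 by limma-voom). With each tumour left out in turn it stayed between -1.002 and -0.81.

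Brca1, which directs the resection of broken ends, was at 2.87, 4.83 and 22.0 CPM in abemaciclib tumours and at 5.19, 12.8 and 24.3 CPM in control tumours. It lay below every control tumour in 7 abemaciclib tumours and was highest in tumour 10, with a log2 ratio of -0.74 (SE 0.325, adjusted p = 0.303). Brca2, a mediator of strand exchange, was at 1.92, 4.78 and 8.77 CPM with abemaciclib and 2.60, 6.95 and 9.00 CPM in controls, a log2 ratio of -0.38 (SE 0.230, adjusted p = 0.496) from 8 to 44 counts in a tumour. Blm, the RecQ helicase lost in Bloom syndrome, was at -0.54 (SE 0.330), and Wrn, its relative lost in Werner syndrome, at 0.0069 (SE 0.216). Rad54l2, a chromatin remodeller related to RAD54, was at -0.15 (SE 0.119). Fancc, the panel's member of the Fanconi anaemia core complex, which answers DNA crosslinks, was at -0.29 (SE 0.185, adjusted p = 0.523), and at -0.16 without control tumour 8.

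**Figure D2:**
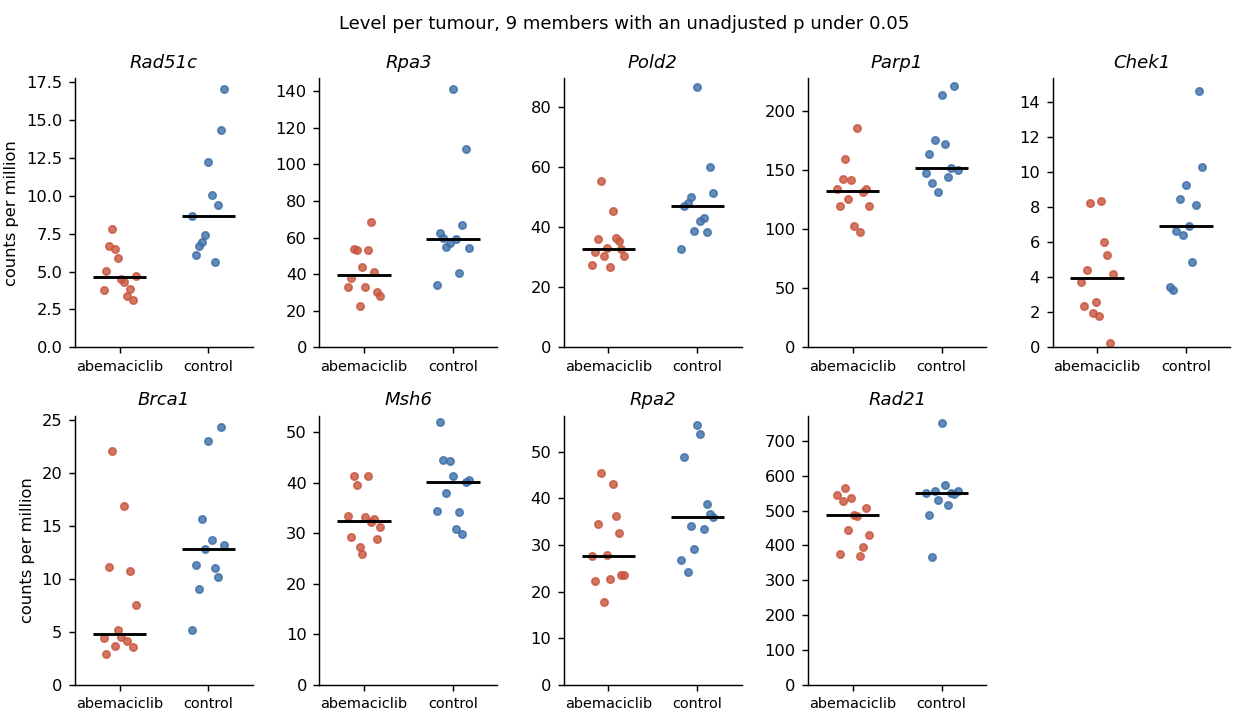
Level in each tumour, in CPM on a linear axis from 0, for 9 of the 10 members with an unadjusted p under 0.05. Each point is 1 tumour (12 abemaciclib, 11 control) and bars mark medians; Rad51c shows 8 abemaciclib tumours below every control tumour, whereas Rad21 shows none.

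All 7 tested replication factors had negative log2 ratios, where 48.9% of all genes had one, with a median of -0.25. At an unadjusted p under 0.05, 3 were lower, against 5.81% of all genes. RPA is the trimer that coats single-stranded DNA in replication and repair, and its subunits had different values. Rpa3, the smallest subunit (chromosome 6, 8255936 to 8259173, minus strand), was at 22.5, 39.5 and 68.4 CPM in abemaciclib tumours and at 34.1, 59.3 and 141 CPM in control tumours. Of 12 abemaciclib tumours, 11 had less than the control median, with a log2 ratio of -0.70 (SE 0.211, adjusted p = 0.127 by edgeR, 0.0581 by DESeq2 and 0.0380 by limma-voom). Rpa2, the subunit phosphorylated after damage, was at 17.7, 27.7 and 45.4 CPM with abemaciclib and 24.2, 36.1 and 55.8 CPM in controls, a log2 ratio of -0.35 (SE 0.169, adjusted p = 0.363). Rpa1, the large DNA-binding subunit, was at -0.23 (SE 0.140, adjusted p = 0.507). Differences between subunits were not tested.

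Pold2, the regulatory subunit of polymerase delta, which copies the lagging strand, was at 26.8, 32.9 and 55.3 CPM in abemaciclib tumours and at 32.6, 46.9 and 86.5 CPM in control tumours. Abemaciclib tumour 10 alone lay above the control median, and the log2 ratio was -0.48 (SE 0.148, adjusted p = 0.134 by edgeR and 0.0401 by limma-voom). Pold4, the smallest subunit of the same enzyme, was at -0.025 (SE 0.121, 95% interval -0.27 to 0.22). Pole2, a subunit of the leading-strand polymerase epsilon, was at -0.25 (SE 0.300) on 6 to 57 counts per tumour, and Rfc2, a clamp loader subunit, at -0.11 (SE 0.120). The 95% interval of Pole2, -0.87 to 0.36, includes changes as large as that of Pold2, and its log2 ratio was -0.17 without abemaciclib tumour 8, -0.43 without abemaciclib tumour 9 and -0.11 without control tumour 8.

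Among the 6 checkpoint genes 1 was lower at an unadjusted p under 0.05, against 5.81% of all genes. Chek1, the kinase that holds cells with stalled forks, was at 0.24, 3.96 and 8.34 CPM in abemaciclib tumours and 3.26, 6.95 and 14.6 CPM in control tumours, from 1 to 50 counts. In 5 abemaciclib tumours it lay below every control tumour, with a log2 ratio of -0.86 (SE 0.339, adjusted p = 0.233). Chek2, the kinase that acts downstream of ATM, was at 28.1, 34.1 and 44.8 CPM with abemaciclib and 27.8, 38.2 and 45.9 CPM in controls, almost the same range, with a log2 ratio of -0.13 (SE 0.109). The apical kinases were near 0. Atm was at 35.1, 49.0 and 64.2 CPM in abemaciclib tumours against 35.3, 46.4 and 63.0 CPM in control tumours, a log2 ratio of 0.050 (SE 0.127, 95% interval -0.21 to 0.31). Atr was at 15.1, 22.1 and 30.5 CPM in abemaciclib tumours against 11.5, 22.7 and 40.7 CPM in control tumours, a log2 ratio of -0.027 (SE 0.180, 95% interval -0.40 to 0.34). Rad17, which loads the 9-1-1 checkpoint clamp, was at -0.18 (SE 0.114), and Rad9a, a subunit of that clamp, at -0.14 (SE 0.197). The sign of Atm turned when libraries were scaled by their totals alone, which moved the median of all genes to -0.12 and that of members to -0.31. The signs of Atr, Ercc5, Msh3, Parp4, Parp8, Pold4, Rad9a and Wrn also turned in at least 1 setting, with the values in the closing section.

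Mismatch repair had 4 members, 3 of them negative, where 48.9% of all genes were. Msh6, part of the complex that recognises single mismatches, was at 25.96, 32.4 and 41.4 CPM in abemaciclib tumours and 29.8, 40.1 and 51.9 CPM in control tumours, a log2 ratio of -0.24 (SE 0.111, adjusted p = 0.331). Msh3, part of the complex that recognises larger loops, was at 0.014 (SE 0.125). In the 4 nucleotide excision genes values were small and negative, where 48.9% of all genes were negative. With 4 genes in each group, these counts show nothing particular to either pathway. Ercc1, a subunit of the nuclease that cuts on the upstream side of a lesion, was at -0.19 (SE 0.110), Ercc6, which restarts stalled transcription, at -0.11 (SE 0.117), the helicase Ercc2 at -0.092 (SE 0.106), and the nuclease Ercc5 at -0.036 (SE 0.104). Of the abemaciclib tumours, 7 had less Ercc1 than any control tumour and 2 had more.

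Parp1, the sensor of DNA breaks that builds chains of ADP-ribose, was the base excision and strand break gene with the smallest p (chromosome 1, 180568924 to 180601254, plus strand). It was at 97.9, 133 and 185 CPM in abemaciclib tumours and 131, 152 and 221 CPM in control tumours. The spread was narrow (coefficient of variation 17.8% in each group), and the log2 ratio was -0.31 (SE 0.107, adjusted p = 0.185 by edgeR, 0.133 by DESeq2 and 0.0902 by limma-voom). Its relative Parp2 was at -0.15 (SE 0.138) and the gap-filling polymerase Polb at -0.096 (SE 0.114). Without control tumour 8 Parp2 was at -0.036, and Polb lay between -0.14 and -0.055 with each tumour left out in turn. Parp4, the PARP of vault particles, was at 0.050 (SE 0.127), and Parp8 at 0.11 (SE 0.189). Xrcc4, the scaffold of the ligase that joins ends, had the highest log2 ratio of any tested member, 0.35 (SE 0.277, adjusted p = 0.623), with 5 to 27 counts in each tumour. Rad21, the cohesin subunit that closes the ring around sister chromatids, was at 370.3, 487 and 564 CPM with abemaciclib and 366, 551 and 753 CPM in controls, with a log2 ratio of -0.21 (SE 0.0989, adjusted p = 0.368).

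The abemaciclib tumours did not share these levels evenly. Of the 36 members, 17 to 33 were under the control median in a given abemaciclib tumour (median 24) and 7 to 24 in a given control tumour (median 15). Abemaciclib tumours 3 and 10 had 17 each, and tumour 4 had 33. Of the 10 members with an unadjusted p under 0.05, 8 of 12 abemaciclib tumours and 1 of 11 control tumours had all 10 below the control median. The exceptions were abemaciclib tumour 10 with 3, tumour 2 with 5, tumour 9 with 8 and tumour 3 with 9. These 4 tumours also had the highest Mki67 of the abemaciclib group, at 109, 77.2, 71.8 and 74.0 CPM. Control tumour 2, the control with all 10 below the median, had 61.1 CPM of Mki67. Control tumours 1 and 6 had less Mki67, at 35.8 and 50.8 CPM, with 8 and 7 members below. Control tumour 11 had 8 below at 98.7 CPM, and control tumour 8, the highest in Mki67 at 152 CPM, had 0. Because the 10 were chosen for their difference, these counts describe the tumours and test nothing.

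Abemaciclib tumour 9 differed in another way. It had the lowest level of its group for 11 of 36 members and the highest for 6. Wrn was at 4.91 CPM there, on 13 counts, against 24.1 CPM in the next-lowest abemaciclib tumour, and Rpa1 was at 50.6 CPM against 111 CPM. Rpa3, Blm and Pole2 were highest in the same tumour. Leaving tumour 9 out gave a log2 ratio of 0.11 for Wrn and -0.15 for Rpa1, and a median over members of -0.15.

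**Figure D3:**
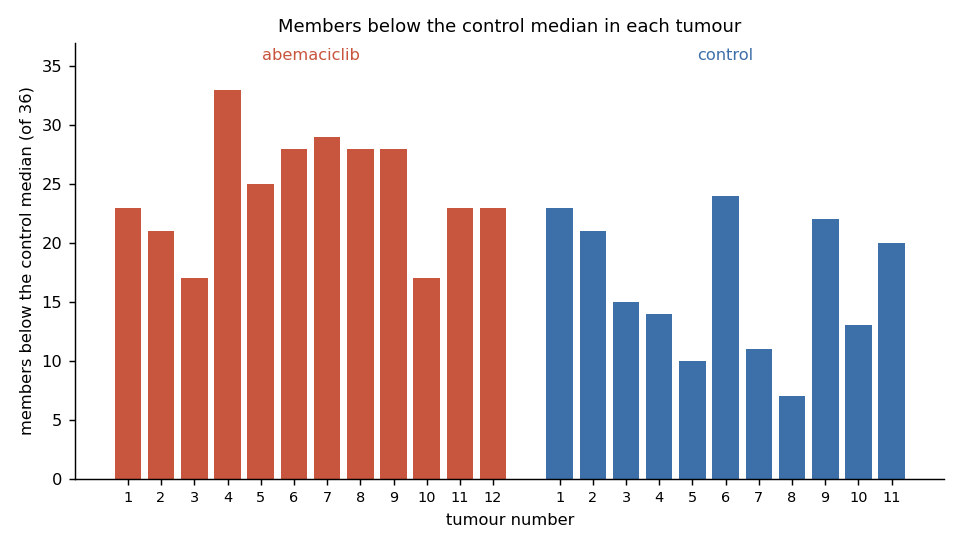
Number of the 36 tested members whose level lies below the control median, for each tumour; bars start at 0. Abemaciclib tumours run between 17 and 33 and control tumours between 7 and 24, with abemaciclib tumours 3 and 10 lowest of their group.

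To see how the members varied among tumours given the same treatment, each gene was fitted against Mki67 within each group. The slope is the log2 change in the gene per log2 unit of Mki67, and a slope of 1 means that the gene varied in proportion to Mki67. Mki67 varied more among abemaciclib than control tumours (SD of log2 CPM 1.14 in abemaciclib and 0.586 in control tumours), and every member had a smaller SE of slope in the abemaciclib group. Blm, Chek1, Brca1 and Pole2 were among the members with the highest slopes in abemaciclib tumours, and the negative slopes called there were those of Ercc2, Ercc5 and Msh3. By edgeR with adjustment over 2924 genes, 12 members had a positive slope in abemaciclib tumours, where 16.4% of all genes did, and 3 a negative one, against 12.4%. In control tumours 3 members had a positive slope, against 3.49% of all genes, and 0 a negative one, against 1.50%. Those 3 members, Blm and Rpa3 among them, were also the ones called positive in both groups, against 2.87% of all genes. Called or not, 20 of 36 slopes were above 0 in abemaciclib tumours, where 50.7% of all genes were, and 28 of 36 in control tumours, where 51.7% were.

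The positive slopes called in control tumours depended on single tumours. The count came to 0 without control tumour 8, 1 without control tumour 1, and 0 when the 2 tumours of each group farthest from the Mki67 median were left out. The 3 negative calls in abemaciclib tumours came to 0 without abemaciclib tumour 1, and to 1 without abemaciclib tumour 2, 9 or 10.

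Blm had a slope of 0.84 (SE 0.0991, adjusted p = 8.97e-07 by edgeR) in abemaciclib tumours and 1.07 (SE 0.196, adjusted p = 0.00188) in control tumours. Brca1 had 0.68 (SE 0.135, adjusted p = 5.62e-04) in abemaciclib tumours, and 0.89 (SE 0.289, adjusted p = 0.0770) in control tumours. The Brca1 control slope was called without abemaciclib tumour 9 (adjusted p = 0.0364). The difference of slopes, abemaciclib minus control, was -0.23 for Blm (95% interval -0.68 to 0.22) and -0.20 for Brca1 (95% interval -0.86 to 0.45). Chek1 had slopes of 0.69 (SE 0.176, adjusted p = 0.00527) in abemaciclib tumours and 0.63 (SE 0.350, adjusted p = 0.298) in control tumours. Pole2 had 0.57 (SE 0.149, adjusted p = 0.00595) with abemaciclib and 0.55 (SE 0.294, adjusted p = 0.282) in controls. Brca2 had 0.36 (SE 0.125, adjusted p = 0.0344) in abemaciclib tumours and 0.62 (SE 0.268, adjusted p = 0.176) in control tumours. Its call was lost without abemaciclib tumour 2, 3, 5, 7 or 11 (adjusted p up to 0.0907), whereas those of Blm, Brca1, Chek1, Pole2, Rpa2 and Rpa3 in abemaciclib tumours held with each tumour left out in turn.

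The RPA subunits again differed in value. Rpa3 had a slope of 0.32 (SE 0.0939, adjusted p = 0.0134) in abemaciclib tumours and 0.74 (SE 0.189, adjusted p = 0.0248) in control tumours. Rpa2 had 0.29 (SE 0.0753, adjusted p = 0.00526) with abemaciclib and 0.50 (SE 0.158, adjusted p = 0.0726) in controls. Rpa1 had slopes of -0.14 (SE 0.0874, 95% interval -0.32 to 0.04) with abemaciclib and -0.061 (SE 0.172, 95% interval -0.42 to 0.29) in controls. Pold2 had 0.23 (SE 0.0701, adjusted p = 0.0151) in abemaciclib tumours and 0.43 (SE 0.140, adjusted p = 0.0795) in control tumours, whereas Pold4 had -0.135 (SE 0.0736) with abemaciclib and -0.075 (SE 0.145) in controls. Without abemaciclib tumour 10 the Pold2 slope in abemaciclib tumours was 0.18 and no longer called (adjusted p = 0.114). The helicase Wrn, set beside Blm, had -0.12 (SE 0.142) in abemaciclib tumours and 0.047 (SE 0.277) in control tumours. Without abemaciclib tumour 9 the abemaciclib slopes of Wrn and Rpa1 were -0.014 and -0.065. Chek2, set beside Chek1, had -0.021 (SE 0.0700) with abemaciclib and -0.0195 (SE 0.151) in controls. Within RPA, polymerase delta, the RecQ helicases and the checkpoint kinases, 1 or 2 members had a positive slope called in the abemaciclib group. In each of these sets another member had none called, where 16.4% of all genes had a positive slope called. Whether slopes within a set differ was not tested, so these counts show no pattern.

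**Figure D4:**
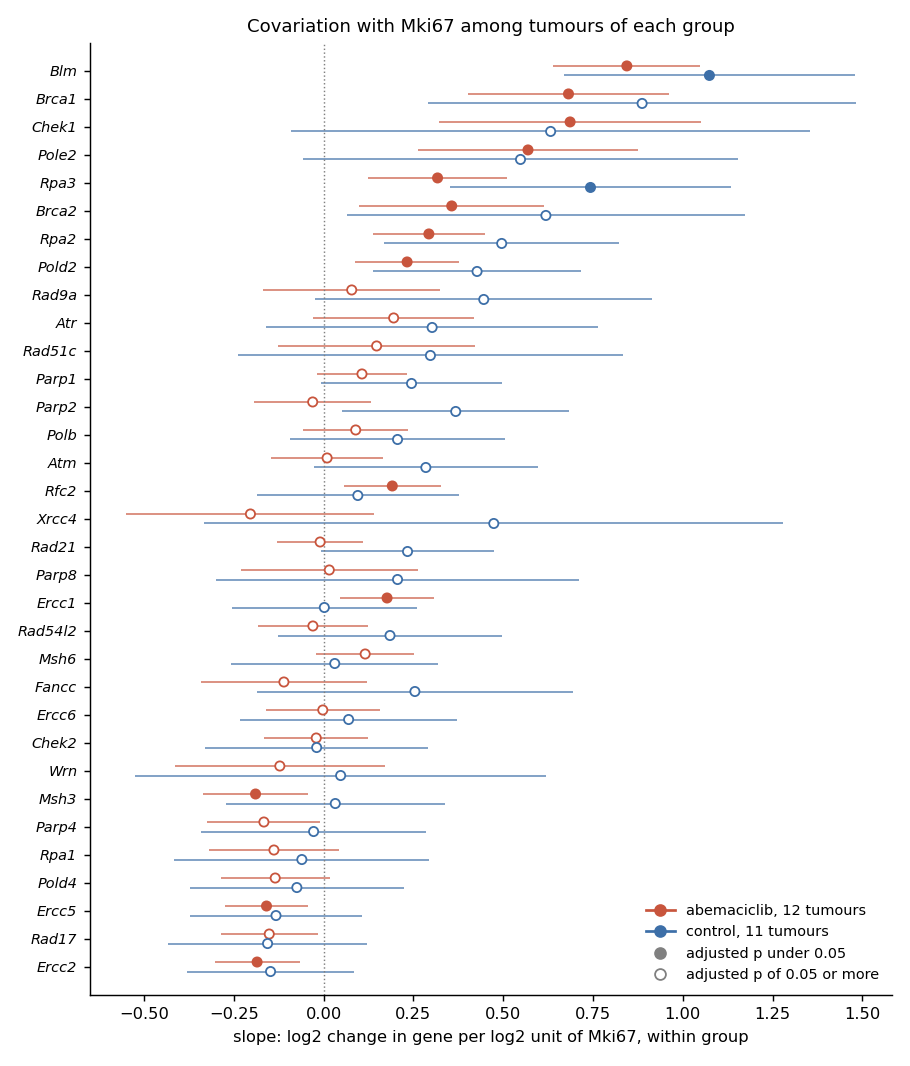
Slope of 33 of the 36 tested members on Mki67 (log2 per log2 unit) within abemaciclib and control tumours. Lines are 95% intervals derived from the edgeR test, and filled points have an adjusted p under 0.05. Blm has the highest slope drawn in both groups, and Ercc2 at -0.19 in abemaciclib tumours is among the 3 filled points left of 0.

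Rad51c, the member with the smallest p between groups, had no slope called in either group. Its slope was 0.15 (SE 0.133, 95% interval -0.13 to 0.42, adjusted p = 0.443) in abemaciclib tumours and 0.30 (SE 0.260, 95% interval -0.24 to 0.83, adjusted p = 0.547) in control tumours. Parp1 had 0.11 (SE 0.0612, adjusted p = 0.204) with abemaciclib and 0.24 (SE 0.123, adjusted p = 0.247) in controls. Msh6 had 0.12 (SE 0.0663, adjusted p = 0.204) with abemaciclib and 0.031 (SE 0.140, adjusted p = 0.917) in controls. Differences between the slopes of genes were not tested.

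Slopes were also called in clamp loader, nucleotide excision and mismatch genes. In abemaciclib tumours Rfc2 had 0.19 (SE 0.0653, adjusted p = 0.0307) and Ercc1 0.18 (SE 0.0634, adjusted p = 0.0393). The negative ones were Ercc2 at -0.19 (SE 0.0574, adjusted p = 0.0177), Ercc5 at -0.16 (SE 0.0564, adjusted p = 0.0367) and Msh3 at -0.19 (SE 0.0712, adjusted p = 0.0480). Each of these 5 calls was lost when single tumours were left out. The Ercc1 call was lost without any of 7 abemaciclib tumours (1, 2, 3, 5, 7, 9 or 11, adjusted p up to 0.0990), and also with limma-voom (adjusted p = 0.0784) and with no filter on low counts (adjusted p = 0.0557). The Rfc2 call was lost without abemaciclib tumour 1, 2, 9, 10 or 11, the Ercc2 call without abemaciclib tumour 1 or 10, and the Ercc5 call without abemaciclib tumour 1, 2, 7 or 9. The Msh3 call was lost without any of 14 tumours, 8 of them abemaciclib (1, 2, 4, 8, 9, 10, 11 and 12) and 6 control (1, 3, 4, 9, 10 and 11), with adjusted p up to 0.223. Parp4, at -0.17 (adjusted p = 0.107) in abemaciclib tumours, was called without abemaciclib tumour 3 (-0.22, adjusted p = 0.0427). In control tumours Ercc1 was at 0.0019 (SE 0.125), Msh3 at 0.032 (SE 0.148) and Parp4 at -0.028 (SE 0.152), none of them called. Slopes were compared between groups in the same fit. The difference passed in 0 of 36 members and in 0 of all genes (0% called) by edgeR, and at an unadjusted p under 0.05 in 1 member, where 9.20% of all genes did. That member was Parp2, at -0.40 (95% interval -0.75 to -0.04, p = 0.0294, adjusted p = 0.506), with slopes of -0.0305 in abemaciclib tumours and 0.37 in control tumours. Rpa3 had a difference of -0.43 (95% interval -0.86 to 0.0047, adjusted p = 0.543).

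**Figure D5:**
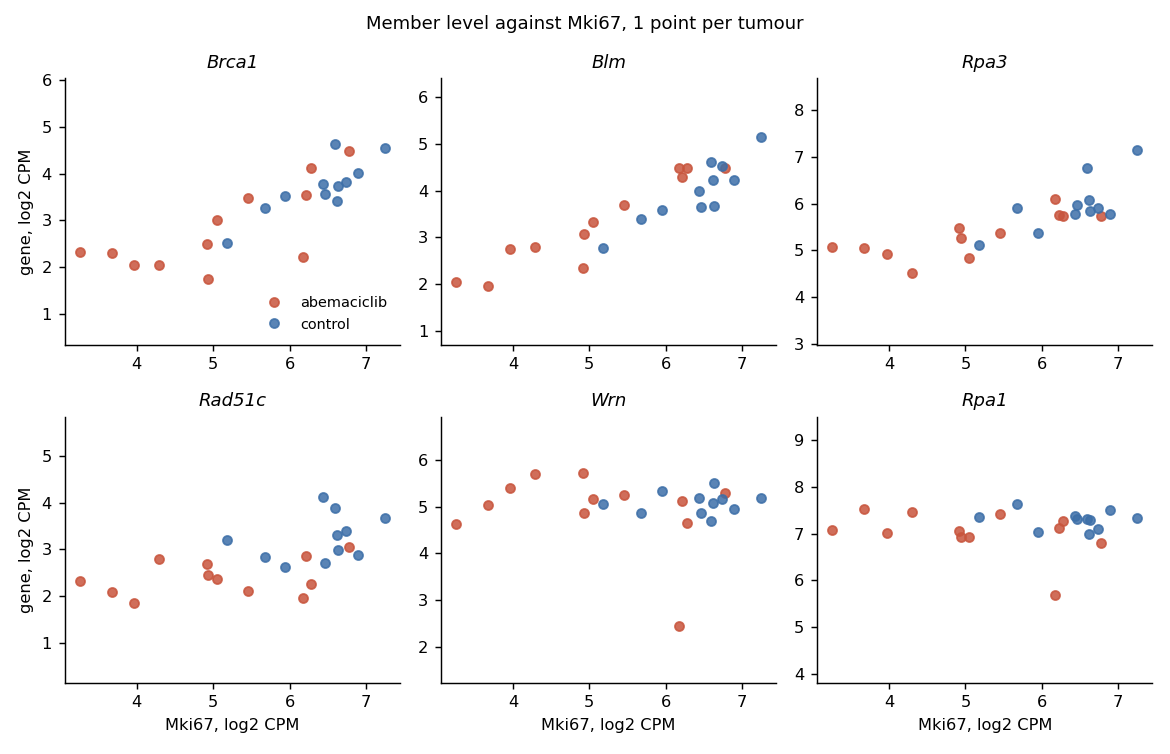
Level of 6 members against Mki67, both in log2 CPM, with 1 point per tumour and the same vertical span in each panel. Blm and Rpa3 have called positive slopes in both groups and Brca1 in abemaciclib tumours; Rad51c, Wrn and Rpa1 have none called, and abemaciclib tumour 9 stands low for Wrn and Rpa1.

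Promoters were searched for the motif of E2F factors, since many recombination and replication genes are known E2F targets. The E2F motif was taken as TTTGGCGC, TTTCCCGC, TTTGCCGC or TTTCGCGC on either strand, in windows of 250 bases before to 50 after each start in RefSeq (GRCm38.p6). Such windows were found for 28 of 37 members, 30 windows in all. The motif was present in 7 of 30 member windows (23.3%), against 3.63% of 3744 windows of panel genes and 2.26% of all 32851 windows. The CHR motif of late cell cycle genes, taken as TTTGAA, was present in 6.67% of member windows, 12.3% of panel windows and 17.9% of all. The interferon-stimulated response element, ISRE, was in 13.3% of member windows, 3.10% of panel windows and 3.44% of all. The members with an E2F match were Rad51c, Brca2, Pole2, Msh6, Chek2 and Msh3. Of these 6, Brca2 and Pole2 had a positive slope on Mki67 called, in abemaciclib tumours, and Rad51c, Msh6, Chek2 and Msh3 had none. Blm, Brca1, Chek1 and Rpa3 had no full match in their windows. The Chek1 window ended in gcgggaa, which lacks only the last base of GCGGGAAA, the motif TTTCCCGC read from the opposite strand. Whether Chek1 has that match could therefore not be read, and other forms of the motif were not searched. The Rad51c windows are shown because the gene had the smallest p between groups, Brca2 and Pole2 because they carry a match and a called slope, and Msh6 because it carries a match and an unadjusted p under 0.05. Capitals mark the E2F motif, and each is read 5′ to 3′ on the strand of its gene.
Rad51c, chr11:87404457-87404756, minus strand: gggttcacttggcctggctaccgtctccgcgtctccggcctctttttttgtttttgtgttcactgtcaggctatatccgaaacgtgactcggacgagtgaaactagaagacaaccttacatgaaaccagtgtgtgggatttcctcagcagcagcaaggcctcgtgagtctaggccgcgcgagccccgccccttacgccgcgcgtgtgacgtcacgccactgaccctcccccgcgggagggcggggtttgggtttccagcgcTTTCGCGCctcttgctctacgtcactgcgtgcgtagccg
Rad51c, chr11:87404905-87405204, minus strand: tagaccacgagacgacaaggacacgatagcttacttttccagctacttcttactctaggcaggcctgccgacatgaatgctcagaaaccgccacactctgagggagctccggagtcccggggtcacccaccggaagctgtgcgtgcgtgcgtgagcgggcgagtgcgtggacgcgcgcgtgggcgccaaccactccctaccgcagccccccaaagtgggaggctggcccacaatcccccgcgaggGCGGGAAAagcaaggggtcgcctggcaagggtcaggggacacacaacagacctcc
Brca2, chr5:150522371-150522670, plus strand: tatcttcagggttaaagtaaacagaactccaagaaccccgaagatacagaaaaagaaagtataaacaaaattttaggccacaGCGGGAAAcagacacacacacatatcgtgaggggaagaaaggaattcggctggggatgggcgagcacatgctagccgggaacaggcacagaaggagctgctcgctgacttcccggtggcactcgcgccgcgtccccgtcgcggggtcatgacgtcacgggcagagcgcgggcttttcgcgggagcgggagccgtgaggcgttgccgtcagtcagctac
Pole2, chr12:69228141-69228440, minus strand: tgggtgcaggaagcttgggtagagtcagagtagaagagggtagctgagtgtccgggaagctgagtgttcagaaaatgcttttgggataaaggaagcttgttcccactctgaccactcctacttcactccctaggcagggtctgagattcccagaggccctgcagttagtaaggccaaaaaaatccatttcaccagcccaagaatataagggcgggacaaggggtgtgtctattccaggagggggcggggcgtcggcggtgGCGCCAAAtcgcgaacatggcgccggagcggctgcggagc
Msh6, chr17:87974800-87975099, plus strand: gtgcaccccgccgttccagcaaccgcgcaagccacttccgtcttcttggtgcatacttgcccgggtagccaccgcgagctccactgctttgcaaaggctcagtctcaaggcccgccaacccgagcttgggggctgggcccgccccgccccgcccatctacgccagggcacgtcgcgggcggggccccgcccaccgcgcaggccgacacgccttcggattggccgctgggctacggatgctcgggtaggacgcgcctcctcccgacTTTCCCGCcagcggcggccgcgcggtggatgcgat
The capitals in Rad51c, Brca2 and Pole2 that begin with GC are the motif read from the opposite strand. A match is a description of these letters and says nothing of which factor binds.

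Repair genes whose symbols fall outside the rule were listed as well. Of 76 such genes listed, 27 were on the panel and 26 were tested, with a median log2 ratio of -0.13. Of these 26, 21 were negative, where 48.9% of all genes were, and 0 passed edgeR's adjusted threshold, as 0 of all genes did. At an unadjusted p under 0.05, 3 were lower, where 5.81% of all genes were, and 0 were higher, where 7.59% were. The 3 were Lig1, the ligase that seals Okazaki fragments, at -0.51 (SE 0.217, adjusted p = 0.286), Pcna, the sliding clamp, at -0.28 (SE 0.121, adjusted p = 0.288), and Timeless, a fork protection factor, at -0.57 (SE 0.250, adjusted p = 0.299). Next by p were Usp1, the deubiquitinase of the Fanconi pathway, at -0.30 (SE 0.147) and Topbp1, an activator of ATR, at -0.33 (SE 0.168). In abemaciclib tumours 10 of the 26 had a positive slope on Mki67 called, where 16.4% of all genes did. In both groups 5 had one called, where 2.87% of all genes did: Lig1, Pcna, Timeless, Topbp1 and Bard1, the partner of BRCA1. Bard1 had 1.24 (SE 0.1995, adjusted p = 6.34e-05) in abemaciclib tumours and 1.101 (SE 0.315, adjusted p = 0.0439) in control tumours. Gadd45a, a stress-induced gene, had the only negative slope called among them, -0.36 (SE 0.128, adjusted p = 0.0370) in abemaciclib tumours. Lig1 had 0.44 in abemaciclib tumours and 0.67 in control tumours, and Timeless had 0.45 with abemaciclib and 0.86 in controls.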

How the data were processed

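Expression was measured in 23 mouse mammary carcinomas, 12 abemaciclib and 11 control. The deposited values are raw counts of amplicon reads per gene in 1 table, not normalized, made from an Ion AmpliSeq panel of 3826 genes, per the labels' protocols. Per the submitters' processing notes the reads were placed on mm10. Aligner, counter and amplicon positions were not given in the sources used here. The labels name no molecular identifiers, so counts may include PCR copies.

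Groups were taken from the sample titles. The tests ran in edgeR 4.0.16 under R 4.3.3. The filter was filterByExpr, given the groups (2925 genes kept, 901 dropped). TMM scaled the libraries, and glmQLFit and glmQLFTest were used, two-sided, with Benjamini-Hochberg adjustment over all tested genes at 0.05. The biological coefficient of variation was 32.6%. CPM uses TMM-scaled totals, and log2 CPM a prior count of 2. Slopes came from 1 fit with group and, within each group, centred log2 CPM of Mki67. Mki67 shares the libraries' scaling with the genes fitted on it. Both fits were run on simulated data with known changes and slopes. Mki67 was simulated there without sampling noise, so the effect of noise in Mki67 on the slopes was not checked. DESeq2 1.42.0 and limma 3.58.1 gave alternative tests. Among 253 library pairs, chi-square over degrees of freedom was at least 18.4, so none was counted as a copy. Members, gene lists and alternatives were chosen with earlier results of these data known. The rule for named genes took every member with an unadjusted p under 0.05, a list of well-known members, up to 3 members of each role by p, and the members with the smallest p or a control slope nearest 0; the other members are named to account for all. Individual results of a few members are not reported here, while counts and medians cover every tested member. Positions are 1-based and come from GENCODE M21, which matched all 37 members, and promoter sequences from RefSeq, GRCm38.p6.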

Additional observations from a re-analysis of the deposited data

How the results depend on the processing

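Treatment log2 fold changes of members kept their sign in most settings. Those named here that turned lay between -0.14 (Rad9a) and 0.11 (Parp8) in the main fit. Scaling by library totals turned Atm (-0.10), Msh3 (-0.13), Parp4 (-0.0948), Parp8 (-0.025) and Wrn (-0.13), and slopes of Chek2 (0.087), Parp2 (0.085) and Wrn (0.016) in abemaciclib and of Chek2 (0.16), Ercc2 (0.074), Ercc5 (0.0915), Parp4 (0.19), Pold4 (0.12) and Rpa1 (0.13) in control tumours. Under that scaling the median log2 ratio of all genes was -0.12, and 1 gene of all was called lower. At an unadjusted p under 0.05, 17 members were lower. Slopes called were 14 positive in control tumours, and 16 positive and 0 negative in abemaciclib tumours. The shares over all genes under that scaling were not counted, so these counts show nothing particular to the members. Limma-voom turned Atr (0.12), Msh3 (-0.051) and Wrn (-0.019), and control slopes of Ercc1 (-0.0436), Msh3 (-0.020), Parp4 (0.00505) and Wrn (-0.0051). It called 57 genes higher and 70 lower, with 4 members lower. DESeq2's Wald test called 47 and 13, with 1 member lower and 5 positive control slopes. Without abemaciclib tumours 3 and 10 there were 32 higher and 61 lower genes, 3 members among them, and Atm (-0.0136), Parp8 (-0.00362) and Wrn (-0.0219) turned. Without abemaciclib tumour 9 and control tumour 8 (a setting chosen after seeing the data), edgeR called 1 gene higher and 1 lower, 6 members were lower at an unadjusted p under 0.05, and Rad9a turned (0.018). Without the 2 tumours of each group farthest from the Mki67 median, control slopes of Ercc1 (-0.019), Msh3 (-0.23), Parp4 (0.057), Pold4 (0.12), Rpa1 (0.22) and Wrn (-0.10) turned, abemaciclib slopes of Brca2, Ercc5, Pold2 and Rfc2 lost their calls, and 0 control slopes were called. The cause of these changes was not tested.

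No clear pairing by tumour number was seen. Same-numbered tumours correlated by -0.43 to 0.45 (median 0.086) over 11 pairs, and 2 abemaciclib tumours of 11 correlated best with their own number. So few pairs cannot exclude a pairing. With the number as a replicate block Atr (0.030), Msh3 (-0.036), Parp4 (-0.0072), Parp8 (-0.021) and Wrn (-0.16) turned, and 0 members were called.

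With each tumour left out in turn, 0 to 21 genes were called higher and 0 to 26 lower, 0 to 2 members lower and 0 higher, and 6 to 11 members were lower at an unadjusted p under 0.05, with 0 higher. Members below 0 numbered 29 to 32, with medians of -0.19 to -0.15. Called slopes were 9 to 12 positive and 0 to 4 negative in abemaciclib tumours, 0 to 4 positive and 0 negative in control tumours, and 0 differed. Signs turned for Atr (-0.098 to 0.083), Ercc5 (-0.081 to 0.0048), Msh3 (-0.058 to 0.050), Pold4 (-0.079 to 0.016) and Wrn (-0.067 to 0.11). So did abemaciclib slopes of Chek2 (-0.060 to 0.029), and control slopes of Chek2 (-0.24 to 0.12), Ercc1 (-0.046 to 0.039), Msh3 (-0.034 to 0.11), Ercc5 (-0.21 to 0.013), Msh6 (-0.070 to 0.096), Parp4 (-0.086 to 0.14), Pold4 (-0.13 to 0.0058), Rpa1 (-0.10 to 0.027) and Wrn (-0.0047 to 0.10). Without a turn of sign, 1 tumour moved by over 1.5 times the log2 fold changes of Atm (0.0091 to 0.096), Ercc2 (-0.15 to -0.054), Ercc6 (-0.16 to -0.055), Fancc (-0.35 to -0.16), Parp2 (-0.19 to -0.036), Parp4 (0.0074 to 0.11), Parp8 (0.043 to 0.19), Polb (-0.14 to -0.055), Pole2 (-0.43 to -0.11), Rad9a (-0.20 to -0.045), Rfc2 (-0.16 to -0.058) and Rpa1 (-0.27 to -0.15). DESeq2 size factors, leaving out Rn7sk and no filter turned no sign, nor did a mean count of at least 50 in the 29 members it kept. It left out 7, Rad51c, Brca1 and Chek1 among them. Low counts limit Rad51c, at 9 to 66 counts per tumour, as well as Chek1, Xrcc4, Brca2 and Pole2.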
